A study of Mus musculus with 6 samples.

Results

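The miR-181 microRNAs were measured by 3 of the 171 miRNA probes (178 probes in all) on 6 two-colour arrays that compared regulatory with conventional T cells of the mouse. The 3 probes were chosen by the number in their ID: 1org-181, taken as miR-181a because RefSeq lists miR-181 as an older name of the gene Mir181a-2, and 2org-181b and 2org-181c. The platform's gene table named 0 of the 3, so the names rest on the IDs.

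One RNA was from natural regulatory T cells, labelled CD4+CD25+, and the other from conventional CD4+CD25- T cells; both were total RNA, hybridised together, with no treatment named. There were 3 biological replicates, each hybridised in both dye orientations. CD4+CD25+ RNA was in Cy5 on arrays 1, 3 and 5 and in Cy3 on arrays 2, 4 and 6. The sources used here do not give strain, age, sex, tissue or sorting, nor whether the replicates came from separate animals, so p-values measure only the spread between these samples. The table holds ratios and no levels, so the cell labels could not be checked against marker genes.

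MicroRNAs are small RNAs that lower the output of messenger RNAs they pair with, mainly through the seed, bases 2 to 8 from the 5′ end. The miR-181 family is expressed in lymphoid cells and is high in developing thymocytes. In mouse T cells miR-181a is known to repress several phosphatases that dampen T cell receptor signalling, and so to raise the sensitivity of the receptor. CD25 is a subunit of the interleukin-2 receptor that marks natural regulatory T cells, which restrain other T cells.

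The mature sequences are shown because the 3 probes target near-identical RNAs with the same seed. They are from RefSeq (GRCm38.p6), 5′ to 3′, with the seed in capitals, and all 3 probes were matched by name.
miR-181a-5p: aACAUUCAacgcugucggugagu
miR-181b-5p: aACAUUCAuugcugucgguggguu
miR-181c-5p: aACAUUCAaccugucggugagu
Counted from the 5′ end of miR-181a, miR-181b differs by the substitutions A9U, C10U and A21G and has 1 added base at its 3′ end. miR-181c lacks the G at position 11 of miR-181a and matches its other 22 bases. The probe sequences were not used here, so how far each probe also binds the other 2 miRNAs was not tested. A further member, miR-181d, has the same seed, and no probe in the table carries its number.

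The family is encoded by 6 genes in 3 pairs. Mir181a-1 and Mir181b-1 lie 97 bases apart on the plus strand of chromosome 1, with hairpins at chr1:137966455-137966541 and chr1:137966639-137966718, and overlap no other RefSeq gene. Mir181a-2 (chr2:38852735-38852810) and Mir181b-2 (chr2:38853830-38853918) lie on the plus strand of chromosome 2, 1019 bases apart, within the span of the gene Nr6a1 and its antisense transcript Nr6a1os. Mir181c and Mir181d lie on the minus strand of chromosome 8, 85 bases apart. Each mature miR-181a and miR-181b can therefore come from 2 genes, and the probes cannot tell these apart.

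All ratios are given as log2 of CD4+CD25+ over CD4+CD25-, and the sign of arrays 2, 4 and 6 was turned. The deposited ratio was read as Cy5 over Cy3, a likely but unstated direction that rests on the channel order; the log base was taken as log2. With the opposite reading every sign turns. Before turning, arrays of opposite dye correlated over the miRNA probes at -0.369 to 0.251 (median -0.0581), so the turning rests on the labels more than on the values. Without it miR-181a would stand at 0.48 (limma adjusted p = 0.0899), miR-181b at 0.16 (adjusted p = 0.586) and miR-181c at -0.63 (adjusted p = 0.0285). SDs are over 3 replicates, each the mean of 2 arrays of opposite dye. The labels do not say which arrays form a pair, so the largest SD, adjusted p and 95% interval over the 6 possible pairings are given. The adjusted p and interval rest on a variance that limma pooled largely over the probes, so neither follows from the SD.

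miR-181a was lower in CD4+CD25+ cells as deposited and relative to the array median, a call that depended on the processing. With CD4+CD25+ in Cy5 its log2 ratios were -0.38, 0.35 and -0.61 (arrays 1, 3 and 5), and with CD4+CD25+ in Cy3 they were -1.11, -1.39 and -1.01 (arrays 2, 4 and 6). It was thus below 0 on 5 of 6 arrays, with array 3 the exception, and the 3 Cy3 arrays all lay below the 3 Cy5 arrays. The mean was -0.69 ± 0.34 (SD, n = 3), or 1.62-fold lower. Its limma 95% interval was -1.22 to -0.16 (adjusted p = 0.0159). Both rest on a standard error of 0.271 pooled largely over the probes, not on this SD. miR-181a did not pass with centring on U6 and tRNA probes (adjusted p = 0.559) or with scaling without centring (adjusted p = 0.243). It also did not pass on the Cy5 arrays alone (adjusted p = 0.687). Nor did it pass in 7 of 9 fits without 1 array of each dye (adjusted p up to 0.123). In bulk RNA, fewer cells that carry a miRNA and less of it per cell cannot be told apart.

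miR-181b, made from the same gene pairs as miR-181a, had a mean ratio near 0 as deposited. Its ratios were 0.64, 0.42 and -0.08 with CD4+CD25+ in Cy5 and -0.08, 0.18 and -0.06 with CD4+CD25+ in Cy3. It was above 0 on 3 arrays and below on 3, and both dye orientations overlapped. The mean was 0.17 ± 0.24 (SD, n = 3) and did not pass the test (limma adjusted p = 0.552); its 95% interval of -0.36 to 0.70 leaves room for a modest difference either way.

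miR-181c, from the pair on chromosome 8, had ratios of opposite sign in the 2 dye orientations. Its ratios were -0.25, -0.28 and -0.21 with CD4+CD25+ in Cy5 and 1.01, 1.14 and 0.87 with CD4+CD25+ in Cy3. Before turning, its value was below 0 on all 6 arrays, so the Cy3 channel was the brighter whichever RNA it held, reading the ratio as Cy5 over Cy3. That value was nearer 0 on arrays 1, 3 and 5 (-0.25, -0.28 and -0.21) than on arrays 2, 4 and 6 (-1.01, -1.14 and -0.87). Over all miRNA probes, 17.5% had one sign on all 6 arrays before turning, and 52.6% had dye means of opposite sign after it. The mean of 0.38 ± 0.08 (SD, n = 3) did not pass (limma adjusted p = 0.18). Its 95% interval of -0.15 to 0.91 leaves room for a difference between the cells. The small SD comes from averaging 2 tight groups of opposite sign.

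**Figure D1:**
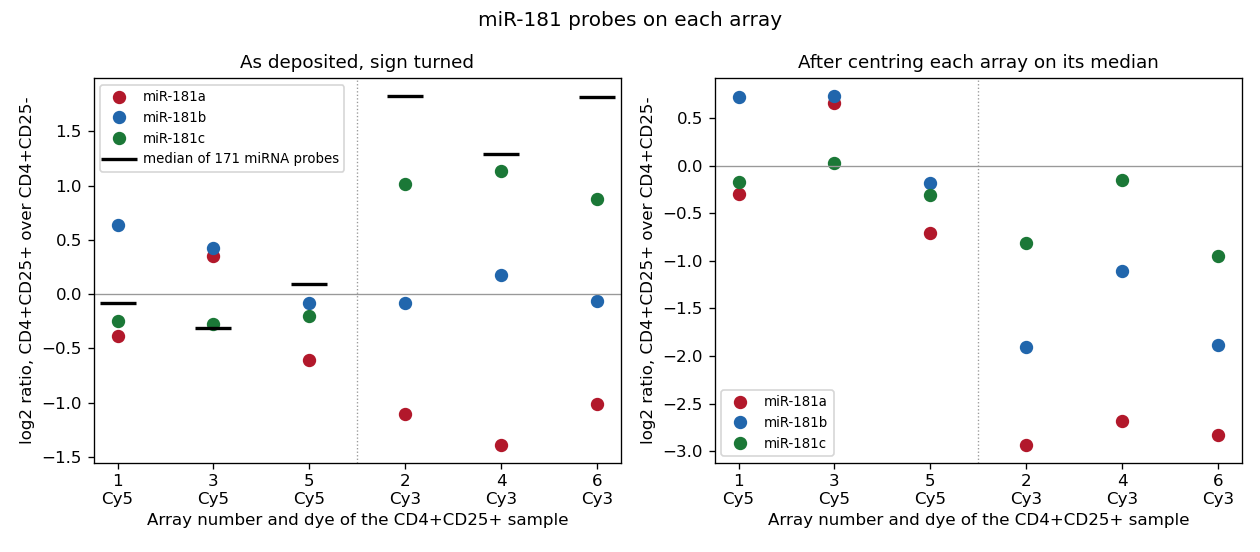
Log2 ratio of the CD4+CD25+ to the CD4+CD25- sample (y axis) for the miR-181a, miR-181b and miR-181c probes on each array (x axis, with the dye of the CD4+CD25+ sample), as deposited with the sign turned (left) and relative to the median of each array (right); black bars are the medians of the 171 miRNA probes. On the left, miR-181a lies below 0 on 5 of 6 arrays and miR-181b on 3 of 6. There miR-181c lies on opposite sides of 0 in the 2 dye orientations.

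As background to these calls, 130 of the 171 miRNA probes passed as deposited (76.0%), 67.3% of all probes as higher and 8.77% as lower in CD4+CD25+ cells. So 1 of 3 miR-181 probes passed, in the less common direction. The median miRNA probe had a log2 ratio of 0.82, and its array medians were -0.31 to 0.10 with CD4+CD25+ in Cy5 and 1.29 to 1.83 with CD4+CD25+ in Cy3. Counted from the lowest of the 171 ratios, miR-181a ranked 13, miR-181b 38 and miR-181c 44, so all 3 lay below the median probe.

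**Figure D2:**
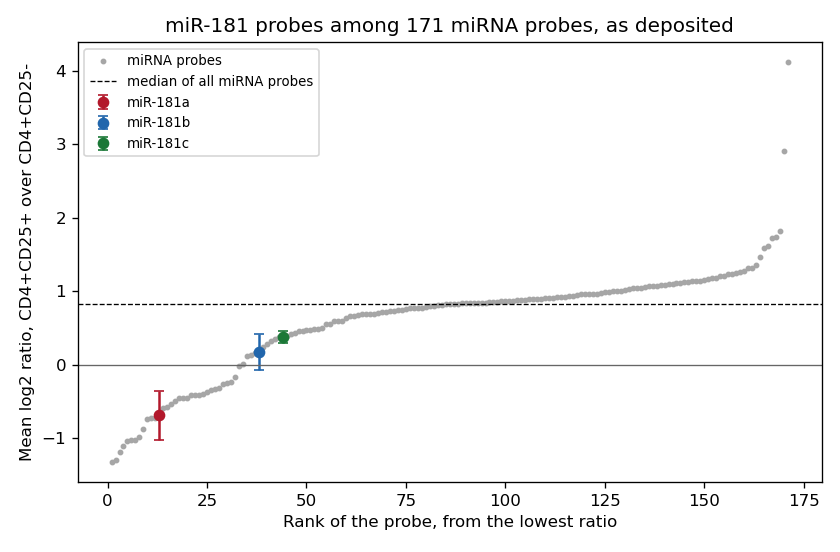
Mean log2 ratio of all 171 miRNA probes as deposited (y axis) against their rank from the lowest (x axis), with the 3 miR-181 probes and their SD (n = 3) in colour and the median of 0.82 dashed. miR-181a stands at rank 13, and miR-181b and miR-181c at ranks 38 and 44, above 0 but below the median.

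Relative to the median of each array, all 3 ratios were below 0. miR-181a stood at -1.46 ± 0.41 (SD, n = 3; limma adjusted p = 0.000183), a ratio 2.76-fold below that of the median probe, with array 3 again above 0 at 0.66 and the Cy3 arrays at -2.94, -2.68 and -2.83. miR-181b changed sign to -0.60 ± 0.43 and passed as lower (adjusted p = 0.0374, 95% interval -1.03 to -0.18), with 4 of 6 arrays below the median. miR-181c changed sign to -0.39 ± 0.30 and did not pass (adjusted p = 0.132), with 5 of 6 arrays below. After this centring 48 of 171 probes passed (28.1%), 22.8% as lower and 5.26% as higher, against 2 of the 3 miR-181 probes as lower.

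Which zero point is used thus sets the direction of miR-181b and miR-181c and the size, not the sign, of miR-181a. A centring on 27 probes for miRNAs typical of epithelial, muscle, liver, neural or embryonic stem cells gave -1.58 for miR-181a (limma adjusted p = 0.00128), -0.72 for miR-181b (adjusted p = 0.0464) and -0.51 for miR-181c (adjusted p = 0.0919). A centring on U6, a spliceosomal RNA, and 4 tRNA probes gave -0.28 for miR-181a (adjusted p = 0.559), 0.59 for miR-181b (adjusted p = 0.181) and 0.80 for miR-181c (adjusted p = 0.0656). Against these 5 probes miR-181a lay between -0.76 and 0.17 on single arrays, below 0 on 5 of 6, and its difference was no longer past the test.

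**Figure D3:**
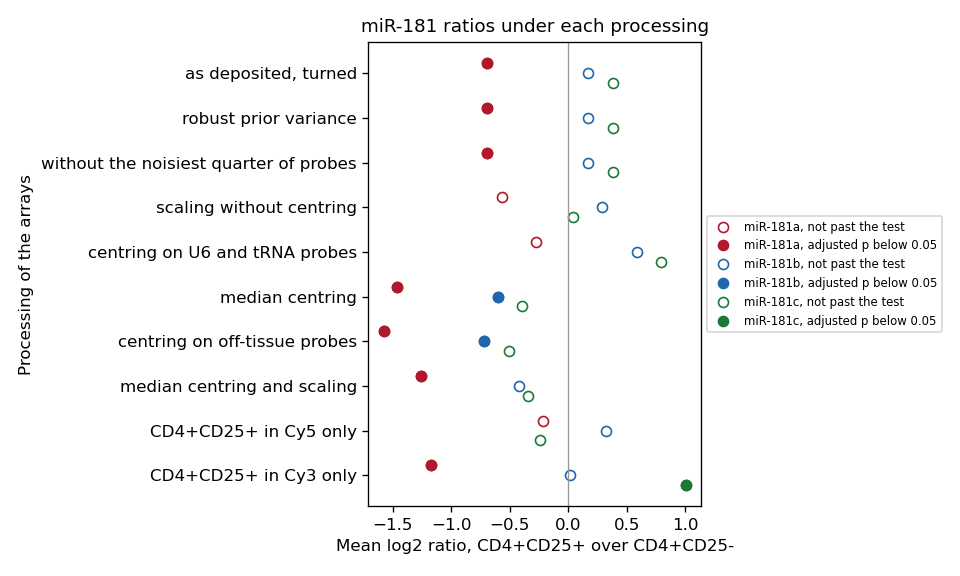
Mean log2 ratio of the CD4+CD25+ to the CD4+CD25- sample (x axis) for each miR-181 probe under 10 ways of processing the arrays (y axis); filled points passed limma at an adjusted p below 0.05 and open points did not. miR-181a is below 0 in all 10, from -1.58 to -0.21, while miR-181b and miR-181c lie on both sides of 0. Some of the 10 share one estimate, -0.69 for miR-181a, so the 10 signs are not separate checks.

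The U6 probe had the same mean ratio as miR-181a, -0.69, and the alanine, histidine, methionine and proline tRNA probes had -0.92, -0.49, -0.16 and -0.06. Like miR-181a, U6 and the first 3 of these tRNAs were above 0 on array 3, at 0.22, 0.47, 0.67 and 0.76, and below 0 on the other arrays. The proline tRNA was above 0 on arrays 2, 3 and 6. Over the 6 median-centred arrays, Pearson's r between miR-181a and these 5 probes was 0.921 to 0.997, and with the other small nuclear RNA probes, whose mean ratios were 0.54 and 0.32, it was -0.395 and 0.264. These are given as a description of 6 points that share their arrays and dye orientation. Centring subtracted the same array medians from each probe, so part of each r is built in by the centring. The part of the pattern that miR-181a shared with U6 and the tRNAs in the miR-181a result was not tested.

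The dye orientation moved the ratio of 2 members. The mean of miR-181a was -0.21 ± 0.50 with CD4+CD25+ in Cy5 and -1.17 ± 0.20 with CD4+CD25+ in Cy3 (SD, n = 3 arrays each; dye column of limma, adjusted p = 0.0496). For miR-181c the means were -0.25 ± 0.04 and 1.01 ± 0.13 (adjusted p = 0.0103), and for miR-181b 0.33 ± 0.37 and 0.01 ± 0.14 (adjusted p = 0.502). Of all 171 probes 70.2% had a dye effect by this test, so 2 of 3 is near the background. After median centring 45.6% did, and again 2 of the 3, here miR-181a and miR-181b. Within one orientation, miR-181a did not pass on the 3 Cy5 arrays (limma adjusted p = 0.687) and passed as lower on the 3 Cy3 arrays (adjusted p = 0.000712), where 86.0% of all probes passed, 14.6% as lower and 71.3% as higher. miR-181c passed as higher on the Cy3 arrays as deposited (1.01, adjusted p = 0.00357) and as lower on the same arrays after median centring (-0.64, adjusted p = 0.0212). On the Cy5 arrays, where none of the 3 members passed, 11.1% of all probes did, 4.09% as lower and 7.02% as higher.

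Where the members stood among all probes also differed between the orientations. On the Cy3 arrays the 27 other-tissue probes had means from -0.01 to 2.92 with a median of 2.14; miR-181a lay below that range, and miR-181b and miR-181c lay inside it but below its median. On the Cy5 arrays the other-tissue range was -1.21 to 1.11 with a median of -0.32, and the means of all 3 miR-181 probes lay inside it and above its median. By rank from the lowest, miR-181a stood at 10 of 171 on the Cy3 arrays and at 67 on the Cy5 arrays, miR-181b at 37 and 134, and miR-181c at 58 and 60.

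**Figure D4:**
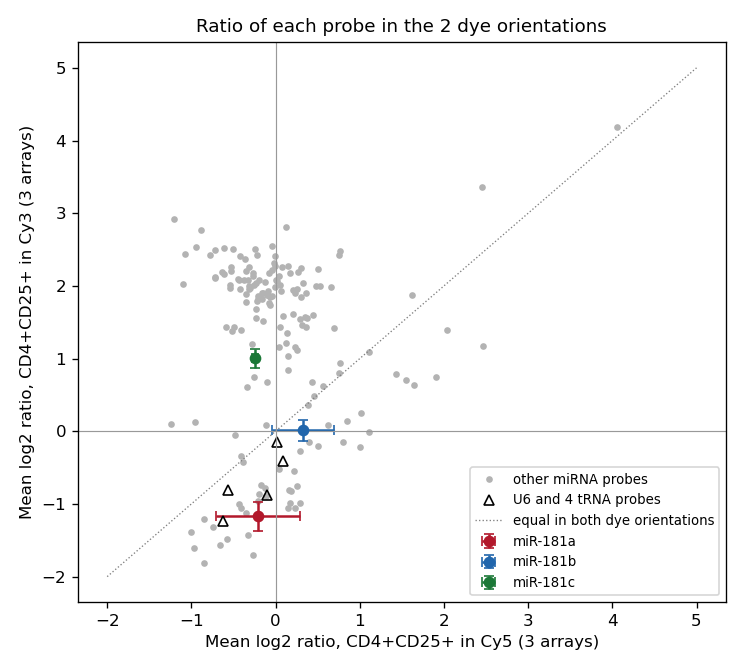
Mean log2 ratio of each miRNA probe on the 3 arrays that had CD4+CD25+ RNA in Cy5 (x axis) and the 3 that had it in Cy3 (y axis), with the miR-181 probes in colour (bars are SDs, n = 3 arrays) and U6 and tRNA probes as triangles; the dotted line marks equal ratios. miR-181a lies below 0 on both axes, miR-181b at 0.33 and 0.01, and miR-181c on opposite sides of 0 (-0.25 and 1.01).

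The members were then compared with each other on the same arrays. miR-181a was lower than miR-181b on 6 of 6 arrays, with differences of -1.57 to -0.07 and a mean of -0.86 ± 0.40 (SD, n = 3). It was lower than miR-181c on 5 of 6 arrays, with a mean difference of -1.07 ± 0.42, but the mean difference was 0.03 on the Cy5 arrays and -2.18 on the Cy3 arrays. miR-181b and miR-181c differed by -0.21 ± 0.24, with miR-181b the lower on 3 of 6 arrays. An exact two-sided sign-flip permutation test over 3 replicates cannot give a p below 0.25; the 3 comparisons each gave 0.25, also after Benjamini-Hochberg adjustment. These differences compare ratios and not levels, and they do not depend on centring.

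The spread within the family was set beside 7 other families on the array whose members share a seed. From the lowest to the highest member the miR-181 ratios spanned 1.07 on the log2 scale, a span exceeded by 2 of the 7 other families. The other spans ranged from 0.31 in the miR-29 family to 1.99 in the let-7 family, with a median of 0.85. On the Cy3 arrays alone the miR-181 means spanned 2.18 and on the Cy5 arrays 0.57, the narrowest of the 8 there. The families differ in size: let-7 had 9 probes and miR-181 had 3.

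**Figure D5:**
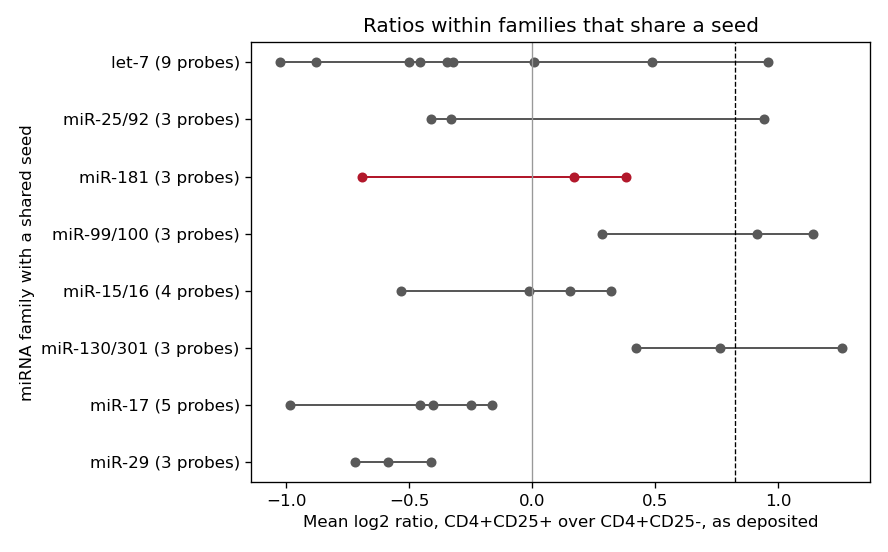
Mean log2 ratio as deposited (x axis) of each probe in 8 miRNA families with a shared seed (y axis, number of probes in brackets), ordered by span; the dashed line is the median of all miRNA probes, 0.82. The miR-181 probes, in red, span 1.07, less than let-7 (1.99) and miR-25/92 (1.35).

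A further product of a miR-181 gene was on the array. RefSeq lists miR-213 as an older name of Mir181a-1, and miR-213 was the name of the arm opposite miR-181a in that hairpin. The probe 2org-213 falls outside the rule for naming probes and was looked at after its values were seen. The hairpin is shown for its arms, miR-181a-5p and then miR-181a-1-3p, in capitals (chr1:137966455-137966541, plus strand, GRCm38.p6).
Mir181a-1: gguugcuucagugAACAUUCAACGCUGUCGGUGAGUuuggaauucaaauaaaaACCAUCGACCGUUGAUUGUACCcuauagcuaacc
The miR-213 ratios were -0.55, 0.31 and -0.40 with CD4+CD25+ in Cy5 and 1.83, 1.67 and 2.09 with CD4+CD25+ in Cy3. Their mean was 0.82 ± 0.33 (SD, n = 3, limma adjusted p = 0.00851), and relative to the array medians it was 0.05 (limma adjusted p = 0.874). At rank 86 of 171 this probe was itself the median miRNA probe, so its mean equals the median of all miRNA probes by definition. On the Cy5 arrays miR-213 and miR-181a had the same mean, -0.21, while on the Cy3 arrays they stood at 1.86 and -1.17.

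Other miRNAs of T cells give the context of these ratios. Of 7 probes for miRNAs made mainly by blood cells, 3 were lower as deposited, 3 were higher and 1 did not pass. Over all probes 8.77% were lower and 67.3% higher. The list median was -0.27, against 0.82 over all miRNA probes. After median centring 4 were lower, 2 were higher and 1 did not pass, where 22.8% of all probes were lower and 5.26% higher. Lower as deposited were miR-142-as and miR-142*, which may be the same strand, at -1.20 ± 0.44 and -1.29 ± 0.45 (limma adjusted p = 0.00569 each). The other was miR-150, known to be plentiful in mature lymphocytes, at -1.03 ± 0.26 (limma adjusted p = 0.00569). The miR-181a ratio lay nearer 0 than any of these. The myeloid marker miR-223 stood at 4.12 ± 0.86 and was above 0 on 6 of 6 arrays (adjusted p = 0.000103); its part in the miR-181 results was not tested.

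Of 15 probes for miRNAs that are high in resting T cells and fall on activation, miR-181a not counted, 10 were lower, 1 was higher and 4 did not pass (median -0.72), where 8.77% of all probes were lower and 67.3% higher. The lowest was miR-30b at -1.33 ± 0.54 (limma adjusted p = 0.00411), and the one higher was miR-101 at 0.84 ± 0.31 (adjusted p = 0.00945). After median centring 13 were lower, 0 were higher and 2 did not pass in limma (median -1.49), where 22.8% of all probes were lower and 5.26% higher, so miR-181a at -1.46 lay near the middle of this list. Of 14 probes for other miRNAs with published targets in T cell receptor or costimulatory signalling, 10 were higher, 3 were lower and 1 did not pass. With 67.3% of all probes higher and a list median of 0.87 against 0.82 over all probes, this list was near the background in these 2 respects. Its 3 lower of 14 stood against 8.77% of all probes. After median centring 2 were higher, 4 were lower and 8 did not pass (median 0.10), where 5.26% of all probes were higher and 22.8% lower. The lower ones as deposited were miR-150, miR-19a at -1.02 ± 0.48 (limma adjusted p = 0.00728) and miR-20 at -0.98 ± 0.38 (adjusted p = 0.00606). The highest was miR-214, at 2.91 ± 1.60 (adjusted p = 0.00569). The miR-146 probe, for a miRNA that restrains NF-kB signalling, was higher at 1.72 ± 0.52 (adjusted p = 0.00411). miR-155, induced by T cell activation, was higher as deposited at 1.23 ± 0.45 (adjusted p = 0.00569) but did not pass after median centring (0.46, adjusted p = 0.0883). These lists were written with earlier results of the same arrays known. They also share probes, such as miR-142 and miR-150 in the blood-cell and resting T cell lists, so their counts are not independent.

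Probes whose median-centred pattern over the 6 arrays was most like each member were picked by Pearson's r. For miR-181a they were the unnamed probe 2org-321 (r = 0.999), miR-93 (0.996) and miR-24 (0.994), whose mean ratios as deposited were -0.24, -0.16 and 1.11. For miR-181b they were let-7d* (0.981), miR-150 (0.979) and 2org-106 (0.966), and for miR-181c miR-132 (0.956), let-7d* (0.854) and miR-194 (0.842). Among the 168 other miRNA probes, 47 had r above 0.9 with miR-181a, 29 with miR-181b and 1 with miR-181c. After the same centring the members correlated with each other at 0.961 (miR-181a and miR-181b), 0.760 (miR-181a and miR-181c) and 0.855 (miR-181b and miR-181c). All these values rest on 6 points that fall into the 2 dye orientations. Centring also subtracted the same array medians from every probe. These were -0.31 to 0.10 on the Cy5 arrays and 1.29 to 1.83 on the Cy3 arrays. A shared step between the orientations is thus built into each r, which cannot show whether the members vary together. As deposited, miR-181a went from -0.21 on the Cy5 to -1.17 on the Cy3 arrays, and miR-181c from -0.25 to 1.01. A high r does not mean a similar ratio, as miR-24 shows.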

How the data were processed

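The authors deposited a log ratio of the 2 channels, taken as log2, for 178 probes on each of 6 arrays. The labels and the table do not state the log base, direction, background correction or normalization. The main fit used the ratios as deposited, without median centring. After turning, array medians were -0.31 to 0.10 with CD4+CD25+ in Cy5 and 1.29 to 1.83 with CD4+CD25+ in Cy3. This shift is therefore part of the main ratios and calls, and median centring was run beside them. No scanner intensities were used, so signal over background is unknown, and the number of arrays limits the precision. Arrays with CD4+CD25+ in Cy3 were multiplied by -1. limma 3.58.1 (R 4.3.3; lmFit with an intercept, eBayes) was fitted to all 171 miRNA probes on 3 means of opposite-dye arrays, and a probe passed with a Benjamini-Hochberg adjusted p under 0.05 in each of the 6 pairings. limma pooled variance largely over the probes: the largest standard error over the pairings was 0.271 for each of the 3 members, so their p-values do not follow from the SDs. The dye effect came from 6 arrays with a dye column. On simulated data (171 probes, 20 simulations) the test on means of opposite-dye arrays recovered 89.2% of log2 changes of 1 and 100% of changes of 2, with 1.3% false calls. The simulated noise was independent for each probe, and the changes went in both directions with no shift of all probes. The real arrays had a median ratio of 0.82, so the simulated rates need not hold for them.

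Named probes were the members, the 3 likest to each by r, and some of the 3 lowest and 3 highest of each list. The members, lists and tests were chosen with earlier results of these data known. Families were matched by probe number to RefSeq mature miRNAs, and those with at least 3 matched probes were kept. Alternatives were 3 centrings, scaling, other models, single orientations, a robust prior, a filter on noisy probes, leaving out pairs of opposite arrays, no turning and the opposite sign. Single orientations and left-out pairs after median centring were added after seeing the data.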

Additional observations from a re-analysis of the deposited data

Results flagged for a closer look

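The ratio of miR-181a differed between the dye orientations, at -0.21 with CD4+CD25+ in Cy5 and -1.17 with CD4+CD25+ in Cy3 (limma adjusted p of the dye column 0.0496), and after median centring at -0.11 and -2.82 (adjusted p = 9.73e-06). The ratio of miR-181c differed as deposited, at -0.25 and 1.01 (adjusted p = 0.0103), and its difference did not pass after median centring (adjusted p = 0.242). That of miR-181b differed after median centring alone, at 0.43 and -1.63 (adjusted p = 9.85e-05). A dye effect was found for 70.2% of the 171 probes as deposited and for 45.6% after median centring.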

How the results depend on the processing

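Fits that changed only the prior variance or left out noisy probes kept the main estimate of -0.69 for miR-181a and do not test its sign. miR-181a kept its sign in every fit that kept the turning and the reading of the ratio. It passed after all 3 settings built on the median or the other-tissue probes (-1.26 with median centring and scaling), but not with centring on U6 and the tRNAs (-0.28), scaling without centring (-0.56, limma adjusted p = 0.243), or the Cy5 arrays alone (-0.21, and -0.11 with median centring). Without turning it was 0.48, and with the opposite sign 0.69. miR-181b was reversed by median centring (-0.60), centring on other-tissue probes (-0.72), median centring with scaling (-0.43), the Cy3 arrays alone after median centring (-1.63) and the opposite sign (-0.17). miR-181c was reversed by the same 3 centrings (-0.39, -0.51 and -0.34), the Cy5 arrays alone (-0.25, and -0.14 after median centring), the Cy3 arrays after median centring (-0.64, passing as lower with adjusted p = 0.0212), no turning (-0.63, also passing, adjusted p = 0.0285) and the opposite sign (-0.38). On the Cy3 arrays alone it passed as higher (1.01).

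Leaving out 1 array of each dye (9 fits, 2 replicates each), miR-181a ranged from -0.87 to -0.54 and passed in 2 of 9, without arrays 3 and 4 or 3 and 6 (adjusted p 0.0167 to 0.123 over the 9). After median centring it ranged from -1.69 to -1.29 and passed in 9 of 9. miR-181b ranged from 0.05 to 0.29 and passed in 0 of 9 in limma, and after centring from -0.81 to -0.39, passing in 2 of 9 (without arrays 3 and 4 or 5 and 4). miR-181c ranged from 0.34 to 0.42 and from -0.56 to -0.28, passing in none of either. The count of probes passing fell from 130 to 48 with median centring, 46 with other-tissue centring, 38 with median centring and scaling, 13 with scaling alone and 19 on the Cy5 arrays (18 with median centring). It ranged from 0 (arrays 3 and 2 left out; 98 had an unadjusted p under 0.05 in limma) to 127 over the left-out pairs, and from 21 to 49 after median centring. Numbers in the labels do not pair the arrays. With each possible pair as a replicate block, miR-181a stayed at -0.69 (limma adjusted p = 0.00857), miR-181b at 0.17 (0.463) and miR-181c at 0.38 (0.105), and 136 probes passed. This fit had no dye column, and its block correlation was -0.805 to -0.649. A negative correlation lowers the standard error, so the smaller p is not stronger support. The cause of the changes between settings was not tested.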
